A study of Mus musculus with 16 samples.

Results

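The 38 genes described here mark the endothelium, the cell layer that lines blood and lymphatic vessels, and they were chosen by symbol from the 41411 genes of a table of mouse esophagus RNA. The choice took pan-endothelial genes, leukocyte adhesion molecules, genes of vessel sprouting and lymphatic genes, by symbol alone, with earlier results of these data known. Each symbol matched 1 gene identifier, and all 38 are protein-coding genes whose coordinates below are GRCm38. RNA was measured by CEL-Seq, which sequences tags from the 3′ ends of transcripts, in 16 libraries of whole esophagus from C57BL/6 mice. The mice were wild type (WT) or Il13ra1-/- (KO), that is without the receptor chain through which IL-13 signals together with the IL-4 receptor. They received the hapten oxazolone (OXA), which serves here as a model of eosinophilic esophagitis, or vehicle. The 4 groups of 4 libraries were WT vehicle, WT OXA, KO vehicle and KO OXA. The sources used here give no age, sex, dose or duration and do not say whether mice were littermates. Since the separateness of libraries within a group is not stated either, p-values measure only the spread between these libraries.

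Endothelial cells are held together by junction proteins such as VE-cadherin and claudin-5, survive and sprout through the receptors of VEGF and of the angiopoietins, and take their identity from ETS and SoxF transcription factors. Inflamed venules display selectins and members of the immunoglobulin family, which slow and then hold leukocytes before these cross the vessel wall. Lymphatic vessels carry fluid and cells away from the tissue and depend on the transcription factor Prox1 and the receptor VEGFR-3, which Flt4 encodes.

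Depth differed with the groups. Recovered reads per library came to 5.61 to 9.55 M in WT vehicle and 20.2 to 27.3 M in WT OXA. The KO libraries held 7.91 to 16.5 M under vehicle and 8.82 to 15.2 M under OXA. The 4 WT OXA libraries were thus the deepest of the 16. They also had the lowest shares of reads from mitochondrial ribosomal RNA, 0.445 to 0.460%, beside 0.694 to 1.73% in KO vehicle, 0.570 to 1.17% in KO OXA and at most 1.71% in WT vehicle. The part of this share in the comparisons that include WT OXA, the interaction among them, was not tested. Il13ra1 itself was 134 to 226 in WT vehicle and 584 to 874 in WT OXA, and 31.2 to 64.7 in KO vehicle and 44.0 to 174 in KO OXA. It was lower in KO under vehicle (limma, adjusted p = 0.0267) and under OXA (1.10e-06). The highest of the libraries labelled KO, KO OXA 2 at 174, lay inside the WT vehicle range and below every WT OXA library. Without it the counts of endothelial genes called, given next, were 18 in WT, 0 in KO, 14 in the interaction and 23 in KO OXA against WT OXA. Which exons were deleted is not stated. Mmrn1, a lymphatic and platelet gene that is no member, also followed the genotype: it was between 0 and 15.5 in the WT vehicle libraries, at 0 in all 4 WT OXA libraries, between 115 and 198 in KO vehicle and between 12.8 and 129 in KO OXA. One C57BL/6 substrain is known to lack Mmrn1, the labels name no substrain, and in every comparison of KO with WT below the Il13ra1 genotype and this difference cannot be told apart. The endothelial markers Pecam1, Cdh5, Kdr and Tie1 were above 0 in all 16 libraries.

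Of the 38 genes 36 had a deposited normalized count of at least 5 in at least 4 libraries and were tested. Egfl7 and Sele were not. In WT mice OXA raised 18 of the 36 and lowered none, and 18 did not pass the test (limma, Benjamini-Hochberg adjusted p under 0.05 over 16748 genes). The background for that count is wide: 34.0% of all genes tested were called in this comparison, 18.0% as higher. The 36 genes had a median log2 fold change of 0.97, against 0.10 over all genes tested. WT OXA and WT vehicle libraries did not overlap for 17 of the 36 genes, all with WT OXA above (47.2%, where 18.5% of all genes did so). In KO mice none rose and 1, Flt1, fell, where 1.90% of all genes were called, 1.81% as higher and 0.0896% as lower. The median in KO was -0.48, against -0.01 over all genes. At an unadjusted p under 0.05 there were 14 of the 36, Vcam1 and Ackr1 with changes above 0 among them. The share of all genes at that level is not given here, so counts at an unadjusted p have no background. On the recovered reads edgeR called 1 gene in KO and DESeq2 called 3. The KO count was 0 without KO vehicle 1, 3 or 4 or without KO OXA 2, and 5 without KO OXA 4, when Erg, Vwf and Prox1 joined Flt1 as lower and Vcam1 was called higher. The KO libraries did not overlap for 4 genes, Flt1, Vwf, Sox17 and Ptprb, each with OXA below (11.1%, background 2.94%). The KO effect was lower than the WT effect for 15 genes and higher for none (interaction of genotype and treatment, background 17.8%, with 7.67% lower), with a median interaction of -1.65 against -0.10 over all genes. In 23 genes the fitted change was above 0 in WT and below 0 in KO, in 12 it was above 0 in both, and in 1, Robo4, below 0 in both. These are bulk libraries, in which fewer cells of a type and less RNA per cell cannot be told apart. A rescaling of all libraries to equal totals moved the median of all genes by 0.31 in WT and the share of WT calls that were higher from 53.0% to 77.4%. It called 24 of the 36 higher in WT, where 30.4% of all genes were then higher, and no called member changed direction. For the interaction it moved the median of all genes by -0.43 and the share of calls that were higher from 56.9% to 20.3%. Under it 22 of the 36 had a lower interaction, against 20.6% of all genes, with medians of -2.06 and -0.53. With every library thinned to 5.61 M reads 14 of the 36 were called in WT, 1 in KO and 14 in the interaction. The shares of all genes called after thinning are not given here, so these 3 counts cannot be read against a background.

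**Figure D1:**
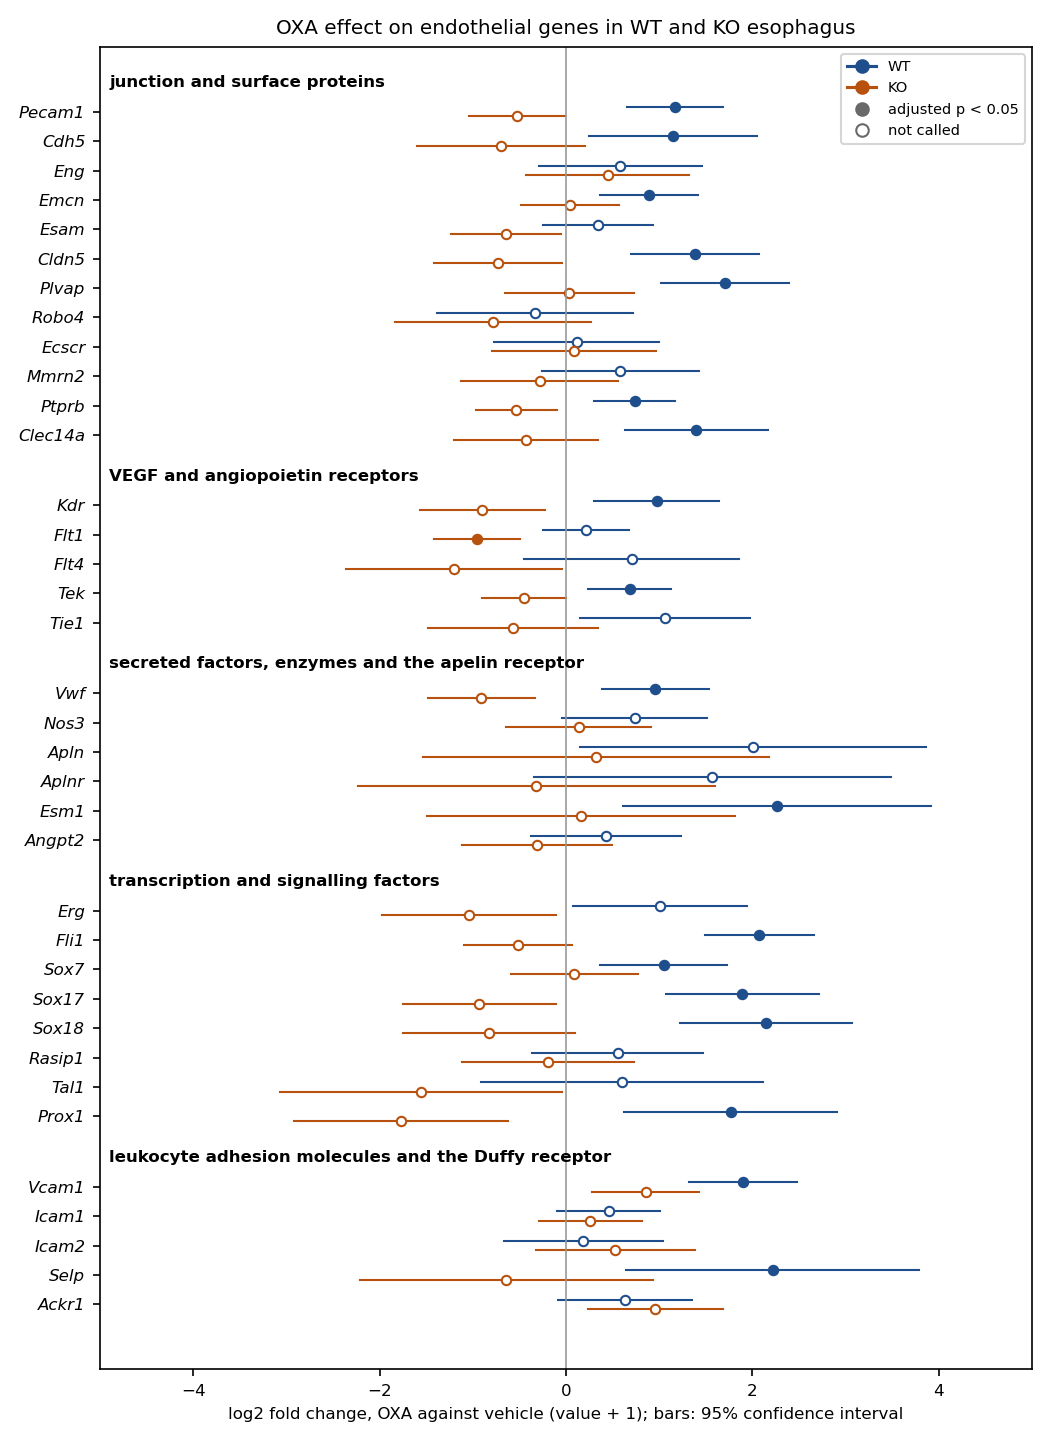
Log2 fold change of OXA against vehicle on the log2(value + 1) scale (x axis) for the 36 tested endothelial genes, by role, in WT (blue) and KO (orange). Points are limma estimates from 4 libraries per group, bars their 95% confidence intervals, and filled points passed an adjusted p of 0.05. The 18 filled WT points all lie right of 0, and Flt1 is the only filled KO point, at -0.95.

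The counts by role below are to be read against the shares of all genes. Of all genes 18.0% were higher in WT, 1.90% were called in KO and 17.8% in the interaction, 7.67% as lower. The junction and surface proteins gave 7 of 12 genes higher in WT OXA, none called in KO (4 at an unadjusted p under 0.05), and 6 interactions. Pecam1 (CD31, a homophilic adhesion protein of endothelial junctions, also on leukocytes and platelets; chr11:106654217-106750628, minus strand) had normalized counts of 309.8, 340.0, 290.1 and 388 in the 4 WT vehicle libraries and 949, 788, 739 and 552 in the WT OXA libraries. The KO values were 366, 288, 313 and 236 under vehicle and 326, 161, 126 and 275 under OXA. All 4 WT OXA libraries stood above the other 12, while the KO groups overlapped. Pecam1 rose in WT by 1.17 ± 0.25 (log2 fold change on the log2(value + 1) scale ± SE, adjusted p = 0.00118). In KO it was -0.52 ± 0.25 (adjusted p = 0.345), and the interaction was -1.69 ± 0.35 (adjusted p = 0.00256).

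Plvap encodes the protein of the diaphragms that close caveolae and fenestrae of capillaries and venules (chr8:71497765-71511752, minus strand). Its counts were 198, 127, 352 and 339 in WT vehicle and 851, 997, 662 and 612 in WT OXA. They were 179, 208, 232 and 87.0 in KO vehicle and 185, 113, 160 and 251 in KO OXA. The WT groups did not overlap and the KO groups covered nearly the same range. Plvap had the largest change of the 12 junction and surface genes in WT, 1.71 ± 0.33 (adjusted p = 0.000557), beside 0.04 ± 0.33 in KO (adjusted p = 0.972) and an interaction of -1.67 ± 0.47 (adjusted p = 0.0178).

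Cdh5, which encodes VE-cadherin of the adherens junction (chr8:104101625-104144511, plus strand), was 44.1, 43.3, 62.0 and 40.1 in WT vehicle and 145, 99.0, 108 and 77.2 in WT OXA. KO vehicle had 45.8, 25.9, 38.8 and 23.0, and KO OXA 29.3, 7.14, 13.6 and 47.3. WT OXA was above WT vehicle in every library, and the KO OXA libraries ranged from below to above all KO vehicle libraries. Its WT rise of 1.15 ± 0.43 passed narrowly (adjusted p = 0.0464), as did its interaction of -1.84 ± 0.61 (adjusted p = 0.0422). Each of these calls was lost in many of the alternatives, the WT call in 14 of 28 and the interaction in 15 of 27. The WT p then reached 0.125, and the libraries whose removal ended that call were WT vehicle 1, 2 and 4, WT OXA 1, 2 and 3, and KO vehicle 1, 2 and 3. For the interaction KO OXA 2 and 3 joined these 9.

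Cldn5, the claudin of endothelial tight junctions, went from a mean of 28.7 ± 8.39 (SD, n = 4) to 76.2 ± 19.4 in WT, a rise of 1.38 ± 0.33 (adjusted p = 0.00307). In KO it went from 26.0 ± 6.70 to 15.1 ± 3.18, and its interaction was -2.11 ± 0.47 (adjusted p = 0.00418, and 0.0904 with thinned reads). Clec14a, a C-type lectin that binds the matrix protein multimerin-2, rose in WT from 75.6 ± 25.3 to 193 ± 30.1 (1.40 ± 0.37, adjusted p = 0.00628) and had an interaction of -1.83 ± 0.52 (adjusted p = 0.0197). Ptprb encodes the phosphatase VE-PTP, which acts on VE-cadherin and on the angiopoietin receptor Tek. It rose in WT by 0.74 ± 0.21 (adjusted p = 0.0101), and its KO OXA libraries, between 155 and 248, all lay below its KO vehicle libraries, between 252 and 352, without passing the test (-0.53 ± 0.21, adjusted p = 0.244). Its interaction was -1.27 ± 0.30 (adjusted p = 0.00583). The sialomucin gene Emcn rose in WT by 0.89 ± 0.25 (adjusted p = 0.0096), beside 0.04 ± 0.25 in KO, and its interaction of -0.85 did not pass (adjusted p = 0.105).

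The other 5 junction and surface genes did not pass in either genotype. Eng, the TGF-beta co-receptor endoglin, was 0.58 ± 0.42 in WT and 0.45 ± 0.42 in KO. Esam, an adhesion protein of tight junctions, was 0.35 ± 0.28 and -0.65 ± 0.28, and Mmrn2, multimerin-2, was 0.58 ± 0.40 and -0.28 ± 0.40. Ecscr, a small endothelial membrane protein, was 0.11 ± 0.42 and 0.09 ± 0.42. Robo4, an endothelial receptor of the Roundabout family, was the only one with a WT estimate below 0, at -0.33 ± 0.50 (adjusted p = 0.654), with 15.7 to 48.8 in WT OXA around the 29.0 to 34.7 of WT vehicle. The 95% intervals of these 5 WT changes reached from -1.38 at the lowest to 1.46 at the highest, so that changes as large as those of Pecam1 or Cldn5 lie within some of them.

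The VEGF and angiopoietin receptors gave 2 of 5 genes higher in WT, 1 lower in KO and 3 interactions. Kdr encodes VEGFR-2, the main signalling receptor of VEGF-A, and Flt1 encodes VEGFR-1, which binds VEGF-A tightly and also limits it as a soluble decoy. The promoters of these VEGF-A receptors are shown, each from 250 bases before to 50 after the RefSeq start on GRCm38.p6 (Kdr chr5:75978406-75978705, minus strand, Flt1 chr5:147725962-147726261, minus strand). Capitals mark AGGAAG, a form of the site of ETS factors such as Erg and Fli1, on either strand. The lines run 5′ to 3′ along the gene.
Kdr: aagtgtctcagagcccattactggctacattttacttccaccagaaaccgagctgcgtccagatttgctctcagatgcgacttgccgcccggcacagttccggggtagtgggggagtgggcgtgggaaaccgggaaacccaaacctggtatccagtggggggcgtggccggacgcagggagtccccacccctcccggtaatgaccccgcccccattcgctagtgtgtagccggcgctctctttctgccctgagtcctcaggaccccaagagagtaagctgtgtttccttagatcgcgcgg
Flt1: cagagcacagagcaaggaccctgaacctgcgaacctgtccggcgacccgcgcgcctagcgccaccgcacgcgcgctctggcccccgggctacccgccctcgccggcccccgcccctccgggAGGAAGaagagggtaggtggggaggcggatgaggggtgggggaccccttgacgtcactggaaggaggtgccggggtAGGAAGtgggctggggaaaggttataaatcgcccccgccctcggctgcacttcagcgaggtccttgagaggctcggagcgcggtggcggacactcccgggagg
AGGAAG occurred 2 times in the Flt1 window and not in the Kdr window, while 35.35% of 32851 mouse promoters of this length hold it. That is a match of letters and no measured site, and other forms of the ETS site were not searched.

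Kdr (chr5:75932827-75978458, minus strand) was 63.3, 41.7, 74.8 and 60.2 in WT vehicle and 182, 101, 114 and 86.9 in WT OXA. In KO it was 69.2, 36.3, 48.7 and 46.0 under vehicle and 33.0, 16.7, 21.0 and 37.0 under OXA. WT OXA lay above WT vehicle throughout, and in KO 3 of 4 OXA libraries lay below every vehicle library. Kdr rose in WT by 0.97 ± 0.32 (adjusted p = 0.0246) and was -0.90 ± 0.32 in KO (adjusted p = 0.195). The interaction was -1.87 ± 0.45 (adjusted p = 0.00751). The WT call was lost without WT vehicle 2, WT OXA 1 or WT OXA 3, and both calls were lost when every library was thinned to equal depth (adjusted p = 0.102 in WT and 0.103 for the interaction).

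Flt1 (chr5:147561604-147726011, minus strand) had 744, 1241, 763 and 905 in WT vehicle and 1308, 1146, 968 and 803 in WT OXA, which overlap. KO vehicle had 892, 849, 1169 and 860.1, and KO OXA 348, 394, 530 and 743, all lower. Flt1 was the only member called in KO, where it fell by 0.95 ± 0.22 (adjusted p = 0.025), while WT stood at 0.22 ± 0.22 (adjusted p = 0.481). Its interaction was -1.17 ± 0.31 (adjusted p = 0.0137). The KO call was lost without KO vehicle 1, 3 or 4, without KO OXA 1 or 2, with no filter on low genes, with no trend and in a fit to the KO libraries alone, where the adjusted p reached 0.125 at most. KO vehicle 3, at 1169, stood apart from the other 3 of its group.

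Tek, the receptor of the angiopoietins, rose in WT from 161 ± 13.1 to 261 ± 39.7 (0.68 ± 0.21, adjusted p = 0.0191) and had an interaction of -1.13 ± 0.30 (adjusted p = 0.0142). Its WT call was lost without WT OXA 1 or WT OXA 2 (adjusted p up to 0.0558). Its partner receptor Tie1 was 1.06 ± 0.44 in WT (adjusted p = 0.0663) and -0.57 ± 0.44 in KO. Tie1 passed in WT with DESeq2 on the recovered reads and with equal library totals, and it did not pass with edgeR. Its interaction did not pass in limma (adjusted p = 0.0726). It passed in 5 of 27 alternatives, edgeR and DESeq2 on the recovered reads among them. Flt4, the receptor of VEGF-C and VEGF-D on lymphatic vessels, was 0.70 ± 0.55 in WT and -1.20 ± 0.55 in KO (adjusted p = 0.331). Its values were low, with means between 9.26 and 49.1.

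The secreted factors, enzymes and the apelin receptor gave 2 of 6 tested genes higher in WT and 1 interaction. That is 16.7% for the interaction, near the 17.8% of all genes called there. Vwf, von Willebrand factor, which endothelial cells and platelets store and release, was 135, 145, 142 and 163 in WT vehicle and 355, 345, 272 and 197 in WT OXA. KO vehicle had 131, 108, 145 and 107, and KO OXA 101, 52.4, 35.9 and 89.0. The WT OXA libraries were above all others and the KO OXA libraries below all others. Vwf rose in WT by 0.96 ± 0.27 (adjusted p = 0.0109), was -0.91 ± 0.27 in KO (adjusted p = 0.11), and had an interaction of -1.87 ± 0.39 (adjusted p = 0.00266). The KO value passed without KO OXA 1 or without KO OXA 4.

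Esm1 encodes endocan, a proteoglycan of sprouting tip cells. It rose from 3.58 ± 4.08 to 16.1 ± 7.03 in WT (2.26 ± 0.79, adjusted p = 0.0328), and WT OXA 1, at 6.17, was below the highest WT vehicle library, at 9.27. That call rests on 9 reads in the WT vehicle group and 142 in WT OXA and was lost in 10 of 27 alternatives, edgeR and DESeq2 among them. The libraries whose removal ended it were WT vehicle 1 and 4 and WT OXA 2, 3 and 4 (adjusted p up to 0.114). Apln, the apelin peptide of tip cells, was 2.01 ± 0.89 in WT (adjusted p = 0.0887), and its receptor gene Aplnr was 1.57 ± 0.92 (adjusted p = 0.199), with WT vehicle libraries as low as 0 for Apln and 1.82 for Aplnr. Nos3, the endothelial nitric oxide synthase, was 0.74 ± 0.37 in WT and 0.14 ± 0.37 in KO. Angpt2, an angiopoietin that can antagonise Tek, was 0.43 ± 0.39 and -0.31 ± 0.39. None of these 4 passed in any of the 5 comparisons. Egfl7, a secreted matrix protein of vessels, gave 1 read under vehicle and 2 under OXA in WT, and 0 and 1 in KO. The 0 allows up to 0.0583 counts per M reads (CPM) over that group, counting error only.

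The transcription and signalling factors gave 5 of 8 genes higher in WT and 5 interactions, and 3 of the 4 largest interactions of the 36 genes, those of Prox1, Sox18 and Sox17, were among them. Fli1, an ETS factor of endothelium and of blood cells (chr9:32422204-32542861, minus strand), was 114, 98.9, 102 and 62.4 in WT vehicle and 483, 383, 416 and 304 in WT OXA. KO vehicle had 152, 217, 149 and 143, and KO OXA 117, 148, 58.2 and 165. The WT OXA libraries lay above all others, and the KO groups overlapped. Fli1 rose in WT by 2.07 ± 0.28 (adjusted p = 1.53e-05), stood at -0.51 ± 0.28 in KO (adjusted p = 0.427) and had an interaction of -2.59 ± 0.40 (adjusted p = 0.000195). Its ETS relative Erg, which is more restricted to endothelium, did not overlap between the WT groups either (21.6 to 40.1 under vehicle, 50.2 to 73.3 under OXA) but was not called in WT (1.01 ± 0.45, adjusted p = 0.0892). Erg had an interaction of -2.05 ± 0.63 (adjusted p = 0.0299), lost in 9 of 27 alternatives (adjusted p up to 0.0624). These were edgeR on the recovered reads (0.0596), no filter, and the fits without WT vehicle 2, WT OXA 1 or 3, KO vehicle 1 or 3, or KO OXA 1 or 3.

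The SoxF factors Sox7, Sox17 and Sox18 act together in vessel formation. Sox18 (chr2:181669836-181671640, minus strand) was 51.0, 23.2, 82.1 and 86.9 in WT vehicle and 349, 271, 228 and 161 in WT OXA. In KO it was 111, 38.8, 128 and 65.7 under vehicle and 25.7, 39.3, 38.4 and 90.6 under OXA. It rose in WT by 2.15 ± 0.44 (adjusted p = 0.000957), was -0.83 ± 0.44 in KO and had an interaction of -2.97 ± 0.63 (adjusted p = 0.0029). WT OXA was above the other 12 libraries, and the KO groups overlapped.

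Sox17, a factor of arterial endothelium, rose in WT from 58.3 ± 34.1 to 196 ± 66.7 (1.89 ± 0.39, adjusted p = 0.00101). In KO all OXA libraries, 33.0 to 52.0, lay below all vehicle libraries, 55.8 to 120, a change of -0.93 ± 0.39 that did not pass (adjusted p = 0.286). Its interaction was -2.82 ± 0.55 (adjusted p = 0.00176). Sox7 rose in WT by 1.05 ± 0.33 (adjusted p = 0.0175, lost without WT vehicle 2 or WT OXA 1, adjusted p up to 0.0636) and was 0.09 ± 0.33 in KO. Its interaction of -0.96 ± 0.46 did not pass (adjusted p = 0.158).

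Prox1, which sets lymphatic endothelial identity and is also made by some muscle and gut cells (chr1:190118035-190170714, minus strand), was 50.9, 30.9, 43.8 and 15.6 in WT vehicle and 147, 108, 118 and 85.3 in WT OXA. KO vehicle had 108, 50.1, 103 and 37.8, and KO OXA 3.67, 31.0, 24.8 and 41.8. WT OXA stood above WT vehicle throughout, and in KO only 1 OXA library reached into the vehicle range. Prox1 rose in WT by 1.77 ± 0.55 (adjusted p = 0.0177, and 0.0639 without WT vehicle 4) and was -1.77 ± 0.55 in KO (adjusted p = 0.12). Its interaction was the largest of the 36 genes, -3.54 ± 0.78 (adjusted p = 0.00394). In KO it passed with DESeq2 on the recovered reads (adjusted p = 0.0254) and did not with edgeR (0.0993). Rasip1, a junctional regulator of small GTPases in vessel lumens, was 0.55 ± 0.44 in WT and -0.19 ± 0.44 in KO. Tal1, a factor of blood and endothelial precursors, was 0.60 ± 0.72 and -1.55 ± 0.72 (adjusted p = 0.338).

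The leukocyte adhesion molecules and the Duffy receptor gave 2 of 5 tested genes higher in WT, with no call in KO or in the interaction. In KO 2 of the 5 had an unadjusted p under 0.05 in limma, and DESeq2 called 1. The promoters of 3 of them in the RefSeq set are shown because these genes are classic targets of the inflammatory factor NF-kB. They are from GRCm38.p6 (Icam1 chr9:21015690-21015989, plus strand, Sele chr1:164047984-164048283, plus strand, Selp chr1:164115014-164115313, plus strand). Capitals mark a loose form of the NF-kB site on either strand, GGG and CC with any 5 bases between them.
Icam1: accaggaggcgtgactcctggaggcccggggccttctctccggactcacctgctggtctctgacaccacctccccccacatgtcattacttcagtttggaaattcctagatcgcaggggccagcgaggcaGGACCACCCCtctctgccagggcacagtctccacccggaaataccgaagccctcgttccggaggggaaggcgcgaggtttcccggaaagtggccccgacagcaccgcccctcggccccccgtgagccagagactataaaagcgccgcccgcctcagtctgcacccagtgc
Sele: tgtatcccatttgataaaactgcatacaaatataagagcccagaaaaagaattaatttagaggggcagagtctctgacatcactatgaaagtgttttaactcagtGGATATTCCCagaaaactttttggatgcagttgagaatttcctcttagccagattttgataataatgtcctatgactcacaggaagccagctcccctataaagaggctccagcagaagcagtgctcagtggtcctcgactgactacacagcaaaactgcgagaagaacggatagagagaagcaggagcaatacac
Selp: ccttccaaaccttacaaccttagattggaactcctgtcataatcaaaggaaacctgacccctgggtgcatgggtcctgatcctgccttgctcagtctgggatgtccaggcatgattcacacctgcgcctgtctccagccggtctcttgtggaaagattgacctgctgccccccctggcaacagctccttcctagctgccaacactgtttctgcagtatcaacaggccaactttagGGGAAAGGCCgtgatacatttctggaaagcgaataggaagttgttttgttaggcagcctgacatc
Each of these 3 windows holds 1 match, and that of Ackr1, not shown, holds none. These are matches of letters and no measured sites, and any sites with other letters stay in lower case. As many as 50.79% of the 32851 mouse promoters of this length hold at least 1 such match, so it is common to these genes and to many others.

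Vcam1 binds alpha-4 integrins of eosinophils and lymphocytes (chr3:116109949-116129688, minus strand). It was 71.6, 110, 73.0 and 84.7 in WT vehicle and 397, 306, 285 and 280.3 in WT OXA. KO vehicle had 56.5, 78.5, 44.9 and 83.7, and KO OXA 193, 136, 91.6 and 76.4. In both genotypes the OXA libraries were mostly the higher ones, without overlap in WT and with KO OXA 4 inside the vehicle range in KO. Vcam1 rose in WT by 1.90 ± 0.28 (adjusted p = 3.38e-05). In KO it was 0.85 ± 0.28, which did not pass in limma (adjusted p = 0.141) or edgeR (0.0969), passed in DESeq2 (0.0394), and passed without KO OXA 4. The interaction of -1.04 ± 0.39 did not pass (adjusted p = 0.0691).

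Selp encodes P-selectin, which endothelium and platelets store in granules and which catches leukocytes through their ligand Selplg. It was 19.3, 21.6, 36.5 and 2.23 in WT vehicle and 82.4, 80.1, 67.1 and 55.6 in WT OXA. The KO values were 4.87, 18.1, 20.5 and 6.57 under vehicle and 3.67, 8.33, 1.24 and 30.7 under OXA. The WT groups did not overlap and the KO groups did. Selp rose in WT by 2.22 ± 0.75 (adjusted p = 0.0282), was -0.64 ± 0.75 in KO, and had an interaction of -2.86 ± 1.06 that did not pass (adjusted p = 0.0687). The WT call was lost without WT vehicle 4 or WT OXA 1, 2 or 3, with no filter and with thinned reads (adjusted p up to 0.115).

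Ackr1, the Duffy receptor that binds chemokines on venules without signalling (chr1:173331886-173333750, minus strand), was 304, 422, 263 and 216 in WT vehicle and 553, 531, 368 and 393 in WT OXA. KO vehicle had 277, 256, 206 and 85.4, and KO OXA 765, 248, 300 and 318. Both comparisons overlapped, and KO OXA 1 stood above the other 15 libraries. Ackr1 was 0.63 ± 0.35 in WT (adjusted p = 0.168) and 0.96 ± 0.35 in KO (adjusted p = 0.203). It was, with Icam2, 1 of 2 tested genes whose interaction estimate was above 0 (0.33 ± 0.49).

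Icam1 binds beta-2 integrins and is found on many inflamed cells. It was 0.46 ± 0.26 in WT (adjusted p = 0.19) and 0.26 ± 0.26 in KO. Icam2, an integrin ligand of resting endothelium, was 0.19 ± 0.41 and 0.53 ± 0.41. Sele, E-selectin, gave 0 reads under vehicle and 17 under OXA in WT, and 0 and 3 in KO, and was not tested. The 17 reads came from 3 of the 4 WT OXA libraries, at normalized counts up to 4.32. The 0 counts allow up to 0.0981 CPM in WT vehicle and 0.0583 in KO vehicle, beside 0.182 in WT OXA.

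**Figure D2:**
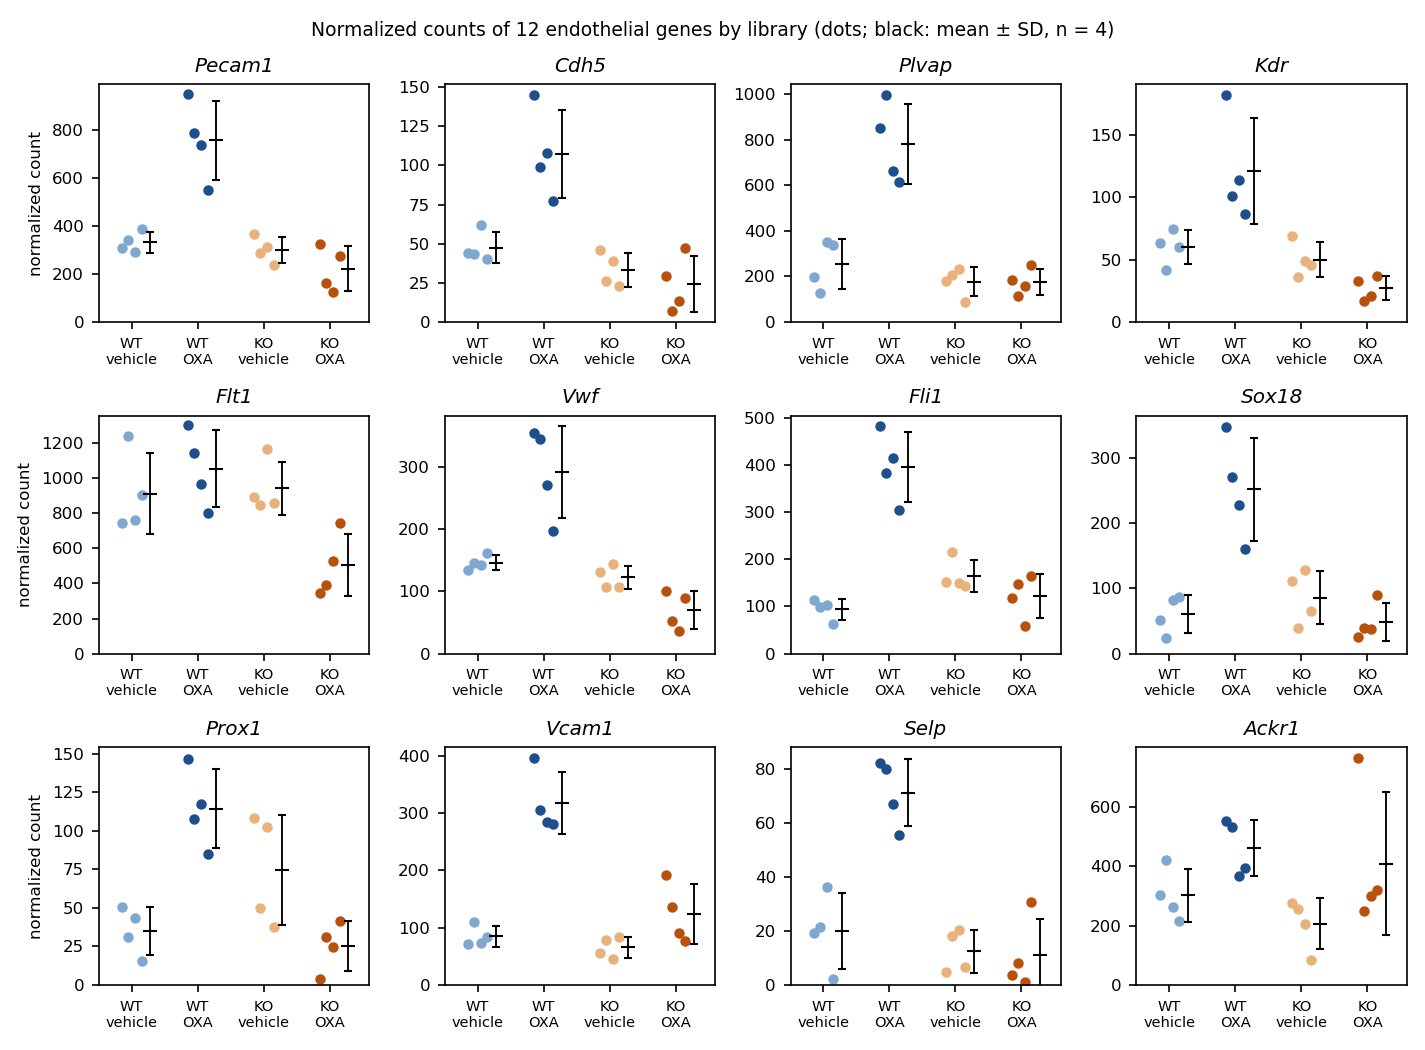
Deposited normalized counts (y axes, linear from 0) of 12 endothelial genes in each of the 16 libraries, with the mean ± SD of each group of 4 in black (bars end at the axis where they would pass 0). WT OXA lies above the other groups for Pecam1, Cdh5, Plvap, Kdr, Vwf, Fli1, Sox18, Vcam1 and Selp, KO OXA is lowest for Flt1 and Vwf, and Ackr1 has 1 high KO OXA library at 765.

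Under vehicle no difference between the genotypes passed the test. None of the 36 genes was called in KO vehicle against WT vehicle, and edgeR and DESeq2 called none either. Of all genes 0.0597% were called, and 3 of the 36, Fli1, Icam1 and Icam2, had an unadjusted p under 0.05. The libraries did not overlap for Tek and Fli1, higher in KO (background 2.66%), and for Ecscr, lower in KO (background 2.69%). Fli1 was 0.81 ± 0.28 (adjusted p = 0.441) and Icam1 was -0.64 ± 0.26 (adjusted p = 0.506). The widest interval of the 36, that of Aplnr, ran from -2.48 to 1.35, so the missing calls do not show that the levels were equal.

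Under OXA 26 of the 36 genes were lower in KO than in WT and none was higher, where 27.6% of all genes were called, 12.9% as lower. The median was -1.63, against -0.05 over all genes, and 22 of the 36 did not overlap, all with KO below (61.1%, background 15.3%). With equal library totals 33 of the 36 were lower, where 30.4% of all genes were, and the share of all calls that were higher went from 53.1% to 19.9%. All 5 VEGF and angiopoietin receptors and all 8 transcription and signalling factors passed, with 9 of 12 junction and surface genes, 3 of 5 adhesion genes and 1 of 6 secreted factors. The largest differences were those of Selp (-3.26 ± 0.75, adjusted p = 0.00283), Tal1 (-2.56 ± 0.72, 0.0118), Prox1 (-2.49 ± 0.55, 0.00194) and Sox18 (-2.46 ± 0.44, 0.000336). Reads were few for these: the KO OXA libraries gave 2, 7, 1 and 39 for Selp and 0, 12, 8 and 34 for Tal1. They gave 2, 26, 20 and 53 for Prox1 and 14, 33, 31 and 115 for Sox18. Vwf (-2.13 ± 0.27, adjusted p = 1.02e-05) and Pecam1 (-1.84 ± 0.25, 1.65e-05) had the smallest p-values. The 10 that did not pass were Eng, Robo4, Ecscr, Nos3, Apln, Aplnr, Esm1, Angpt2, Icam2 and Ackr1. This comparison shares its libraries with the OXA effects and the interaction above and adds no separate evidence.

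In WT OXA and KO vehicle the genes tended to be high or low together within a library, and in WT vehicle they did not. WT vehicle 1 to 4 were the highest in 5, 12, 7 and 12 of the 36 genes and the lowest in 12, 11, 5 and 8. Among the WT OXA libraries number 1, the deepest at 27.3 M reads, was the highest in 26 of the 36 genes. Number 4, the shallowest at 20.2 M, was the lowest in 31, while number 2, at 20.3 M, was the lowest in 1. In KO vehicle number 3, the deepest at 16.5 M, was the highest in 19, and number 4, the shallowest at 7.91 M, the lowest in 22. In KO OXA number 4, the deepest at 15.2 M, was the highest in 21. KO OXA 1, the shallowest at 8.82 M, was the highest in 15 and the lowest in 12. WT vehicle 1 was the deepest of its group, at 9.55 M. The part of depth in these ranks was not tested. The summed normalized count of the members was 3904 to 4488 in WT vehicle, 5898 to 9923 in WT OXA, 3097 to 4896 in KO vehicle and 2436 to 3980 in KO OXA. The members are not independent of each other, since they come from the same libraries and largely the same cells.

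To see which genes moved unlike the rest, 32 tested members were divided by the sum of Pecam1, Cdh5, Kdr and Tie1 in the same library, as a description with no test. That sum was 522 to 697 in WT vehicle, 929 to 1788 in WT OXA, 359 to 695 in KO vehicle and 241 to 532 in KO OXA. The sum itself moved with the groups, which moves every ratio to it, so each count is given with its share over the other 16744 tested genes divided in the same way. Per unit of these 4 markers, 3 of the 32 genes were higher in every WT OXA library than in every WT vehicle library, Fli1, Sox18 and Vcam1 (2.68% of all). The ratio of Vcam1 went from 0.141 ± 0.0479 (SD, n = 4) to 0.241 ± 0.0405, and that of Fli1 from 0.154 ± 0.0404 to 0.299 ± 0.0267. Another 8 were lower in every WT OXA library, Flt1, Tek, Esam, Robo4, Ecscr, Icam2, Rasip1 and Ptprb, where 44.0% of all genes were. The ratio of Flt1 went from 1.53 ± 0.588 to 0.793 ± 0.0713 there. In KO 4 genes were higher in every OXA library, Eng, Icam1, Icam2 and Ackr1, and none was lower, beside 5.40% and 0.0896% of all genes. The ratio of Ackr1 went from 0.358 ± 0.112 to 1.07 ± 0.396 and that of Icam1 from 0.169 ± 0.0450 to 0.300 ± 0.0657. For all 4 the mean ratio in WT was lower under OXA than under vehicle, at 0.232 and 0.148 for Icam1, 0.0480 and 0.0240 for Icam2, 0.503 and 0.350 for Ackr1 and 0.165 and 0.114 for Eng under vehicle and OXA. The WT libraries overlapped for Icam1, Ackr1 and Eng and did not for Icam2.

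**Figure D3:**
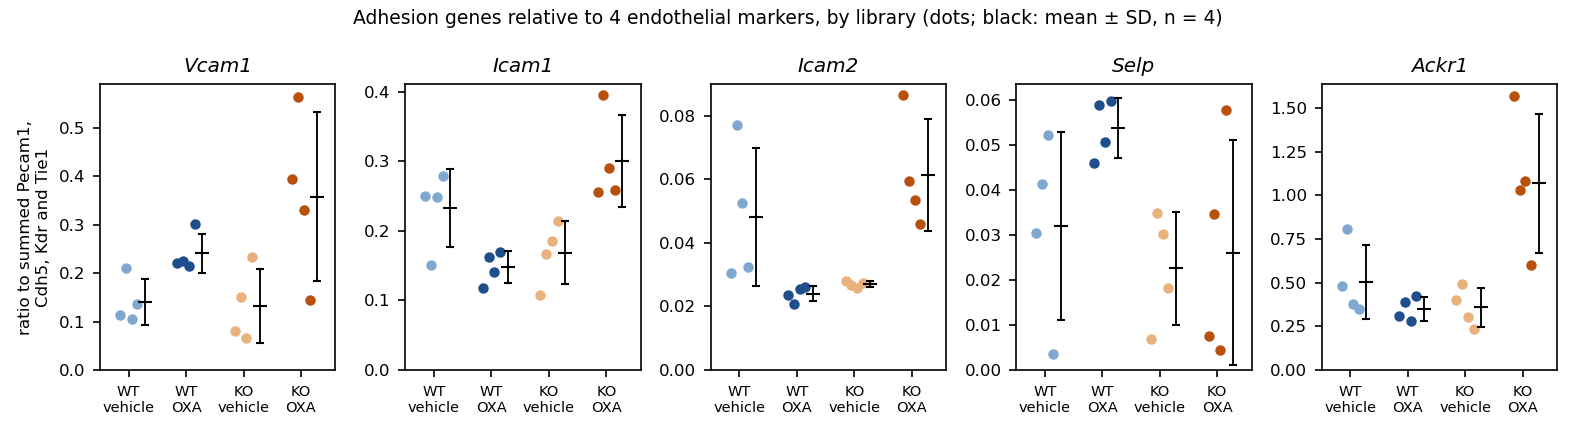
Ratio of 5 adhesion genes to the sum of Pecam1, Cdh5, Kdr and Tie1 in the same library (y axes, linear from 0), with the mean ± SD of each group of 4 in black. Ackr1, Icam1 and Icam2 are higher in every KO OXA library than in every KO vehicle library, and Vcam1 is higher in every WT OXA library than in every WT vehicle library.

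The wider vascular lists are given by their counts. These are to be read against the 34.0% of all genes called in WT, the 1.90% called in KO and the 17.8% called in the interaction. Of 32 other endothelial genes 11 rose, 2 fell and 19 did not pass in WT, none passed in KO, and the interaction was lower for 7 and higher for 1 (median in WT 0.82, in KO -0.16). Ets1, an ETS factor of endothelium and lymphocytes, rose by 2.12 ± 0.30 (adjusted p = 2.98e-05). Rgcc, a cell cycle regulator found in capillaries, fell by 1.82 ± 0.20 (adjusted p = 1.69e-06) and had the 1 interaction above 0, 1.44 ± 0.29. Cyyr1 had an interaction of -2.24 ± 0.47 (adjusted p = 0.00271). Of 7 tested lymphatic genes 1 rose in WT, Pdpn (podoplanin, also made by basal keratinocytes and fibroblasts), by 0.73 ± 0.23 (adjusted p = 0.0185). Nrp2, a co-receptor of VEGF-C, had an interaction of -0.74 ± 0.21 (adjusted p = 0.0193) and Reln one of -1.19 ± 0.47 (adjusted p = 0.0844). The other 6 did not pass in WT in limma. One of them is Mmrn1, the gene that followed the genotype, which was called lower in WT OXA by edgeR (adjusted p = 0.0126) and DESeq2 (0.000543).

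Of 17 tested genes of the VEGF, angiopoietin and apelin system 5 rose and 3 fell in WT, none passed in KO, and 6 had a lower interaction. The co-receptor Nrp1 rose from 239.6 to 673 (1.51 ± 0.19, adjusted p = 5.94e-06) with an interaction of -1.55 ± 0.26 (adjusted p = 0.000519), and the inhibitor of vessel growth Thbs1 rose by 2.47 ± 0.33 (adjusted p = 1.30e-05). Hif1a, the oxygen-sensing factor, had an interaction of -2.30 ± 0.48 (adjusted p = 0.00261). Of 15 genes induced by hypoxia none rose and 4 fell in WT, among them Adm, by 1.29 ± 0.24 (adjusted p = 0.000405), and Bnip3, by 0.85 ± 0.16 (adjusted p = 0.000557). None of the 15 passed in KO (3 at an unadjusted p under 0.05, edgeR 0, DESeq2 1). Of 20 Notch and BMP signalling genes 4 rose and 2 fell in WT, with Id3 at 1.11 ± 0.27 and Jag2 at -1.13 ± 0.22. Smad7 had the 1 interaction that passed, -1.27 ± 0.42 (adjusted p = 0.0419).

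Of the leukocyte ligands of the adhesion molecules 9 of 11 tested genes rose in WT and none fell, with a median of 2.12. In KO 3 of the 11 rose, Itgb2, Itgb7 and Selplg, and 8 did not pass, with a median of 1.21. Selplg, the ligand of P-selectin, rose in WT from 136 to 409 (1.62 ± 0.26, adjusted p = 0.000103), and Itgb7, which pairs with alpha-4 integrin, from 16.4 to 108 (2.68 ± 0.44, adjusted p = 0.000116). Itgb2 had an interaction above 0, at 1.02 ± 0.28 (adjusted p = 0.0157). Of 18 NF-kB feedback, TNF and IL-1 genes 13 rose in WT, 1 rose in KO and 4 had a lower interaction. Nfkb1 rose in WT by 1.20 ± 0.14 (adjusted p = 3.22e-06) with an interaction of -1.18 ± 0.20 (adjusted p = 0.000519), and Rela had an interaction of -1.34 ± 0.28 (adjusted p = 0.00258).

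Genes of the pericytes that wrap small vessels were split. Of 11 tested 2 rose and 3 fell in WT, and none passed in KO (3 at an unadjusted p under 0.05, edgeR 0, DESeq2 0). Rgs5 rose from 952 to 2092 (1.15 ± 0.20, adjusted p = 0.000187) and Ndufa4l2, with means of 1144 under vehicle and 189 under OXA, fell by 2.55 ± 0.22 (adjusted p = 5.50e-08). Their interactions were -1.59 ± 0.28 and 2.36 ± 0.31, both past the threshold (adjusted p = 0.00068 and 3.85e-05). The summed level of the list was 4297 to 5663 in WT vehicle, 4427 to 6318 in WT OXA, 4922 to 5801 in KO vehicle and 3657 to 4951 in KO OXA.

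Other cell types also moved with the groups, and their part in the endothelial values was not tested. Leukocyte markers rose for 14 of 19 tested genes in WT and 8 of 19 in KO, with none lower (18.0% and 1.81% of all genes were higher). Their sum was 3545 to 4707 in WT vehicle, 8025 to 9177 in WT OXA, 2400 to 4790 in KO vehicle and 5164 to 12329 in KO OXA. Pecam1, Fli1, Selp and Tal1 are among the members also made by blood cells. These 4 genes had changes in KO of -0.52, -0.51, -0.64 and -1.55, none of which passed the test. The KO change was above 0 in 12 of the 36 members, among them Icam1, which is found on many inflamed cells, and Icam2. All KO OXA libraries had a leukocyte sum above every KO vehicle library, but the markers in it did not move alike. Between KO OXA and WT OXA 2 of the 19 were higher and 4 lower (31.6% called, background 27.6%). What blood cells add to these 4 genes or to other members was not tested. Platelets also hold Vwf and Selp. Of 5 tested platelet markers none rose and 1 fell in WT, Pf4, by 1.33 ± 0.34 (adjusted p = 0.00529). Red cell markers, a trace of blood left in the tissue, gave no call among 5 in either genotype, with sums of 5966 to 11046, 4637 to 8345, 5394 to 11978 and 4255 to 11113 in WT vehicle, WT OXA, KO vehicle and KO OXA. The limma counts of 0 stand beside 1 red cell gene at an unadjusted p under 0.05 in WT and 0 in KO, with 0 by edgeR and by DESeq2.

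Epithelial and muscle markers moved with the groups as well. The summed epithelial markers were 1270630 to 1872780 in WT vehicle and 444317 to 730443 in WT OXA, without overlap, and 1341370 to 1651000 and 1245210 to 2722150 in the KO groups, with overlap. Most of this sum came from 2 keratin genes, so it does not measure the epithelium as a whole. In WT the mean of Krt4 was 1247940 under vehicle and 375742 under OXA, and that of Krt13 333043 and 148657. Krt5 had means of 20139 and 16918. Within that list 3 genes rose and 2 fell in WT. The basal keratin Krt14 rose by 2.04 ± 0.20 (adjusted p = 4.22e-07), and Krt15 fell from 22256 to 4387 (adjusted p = 3.11e-06). Of 12 muscle markers 5 fell in WT and none passed in KO (2 at an unadjusted p under 0.05, edgeR 0, DESeq2 0). Their sums were 162724 to 309456 under vehicle and 90377 to 174663 under OXA in WT, and 209387 to 281818 and 129131 to 221906 in KO. The mean sum was lower under OXA in both genotypes, with overlap in each. Fibroblast markers gave 0 higher and 1 lower of 9 in WT, and of 6 tested mast cell markers 1, Kit, rose in WT, by 1.42 ± 0.46 (adjusted p = 0.0221).

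**Figure D4:**
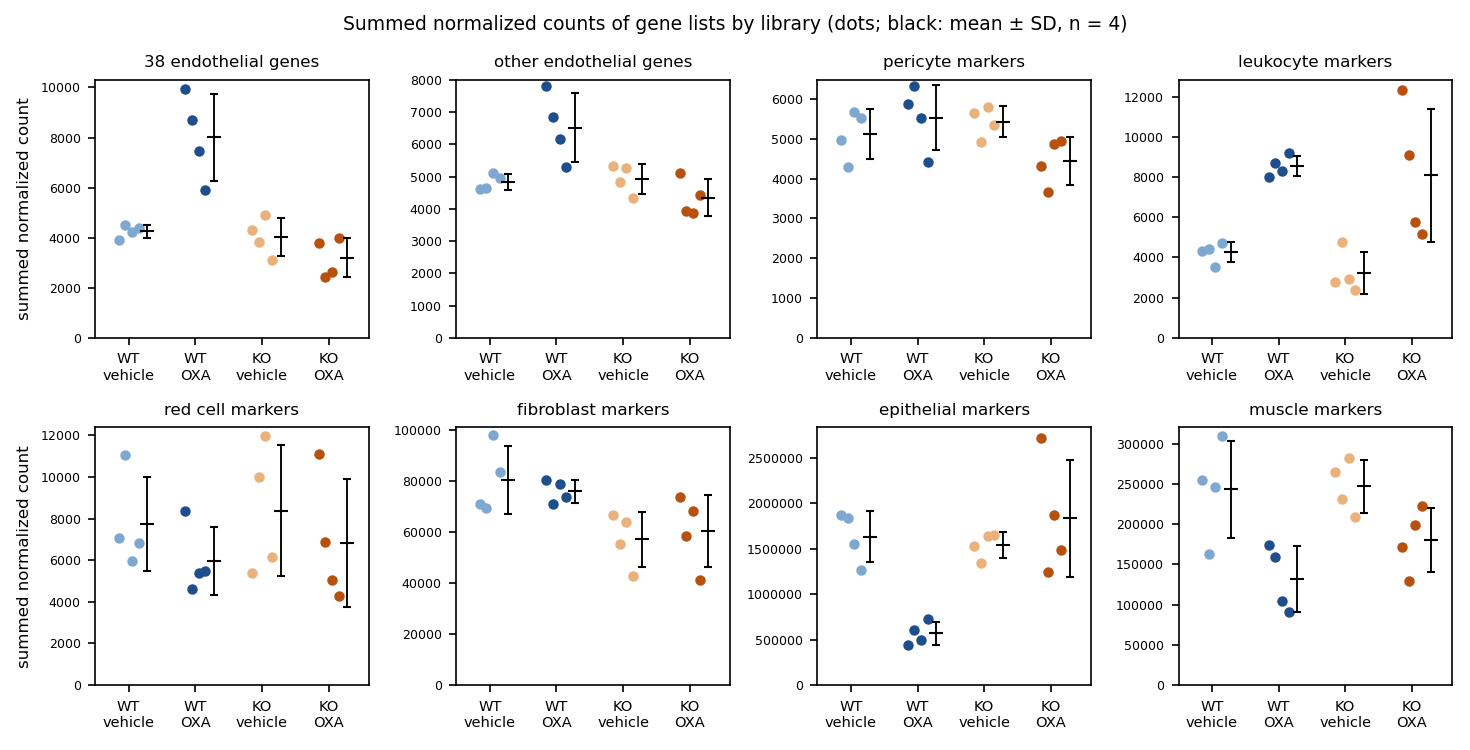
Summed normalized counts (y axes, linear from 0) of the 38 endothelial genes and of 7 other gene lists in each library, with the mean ± SD of each group of 4 in black. The endothelial sum is higher in all 4 WT OXA libraries (5898 to 9923) than in any other library. The leukocyte sum is higher under OXA in both genotypes, and the epithelial sum, mostly Krt4 and Krt13, is lowest in WT OXA.

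In the RefSeq promoter set 21 of the 38 genes had an entry, with 27 promoters in all. AGGAAG occurred in 13 of the 27 (48.15%, where 35.35% of all 32851 promoters hold it) and the loose NF-kB form in 16 of the 27 (59.26%, where 50.79% of all do). ACAATG, a core of SoxF sites, occurred in 1 of the 27 (12.57% of all). All 3 motifs were read on both strands. Of the tested genes with AGGAAG in any window, Emcn and Selp rose in WT. Flt1, Tie1, Eng, Erg, Robo4, Ackr1, Rasip1 and Apln hold it too and did not pass there. Of the tested genes without it, Kdr, Tek, Cldn5, Esm1, Prox1 and Clec14a rose, and Flt4, Icam1 and Tal1 did not pass. A link between motif and change was not tested.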

How the data were processed

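CEL-Seq libraries of mouse esophagus, 4 groups of 4, were analysed. Per the submitters' processing notes, the authors used FastQC 0.11.5, Trim Galore, cutadapt 1.10, TopHat2 2.1.0, Bowtie2 2.2.6, GRCm38, HTSeq 0.6.1 and DESeq2 1.28.0. How molecular identifiers, strand and reads shared by paralogs were handled is not given in the sources used here. Each deposited value is a signal at or above 0, labelled as a normalized count. Within a library nearly all values are whole multiples of 1 step, as counts scaled by a single factor would be, so reads were recovered (tolerance 0.1 of a read). Depth and precision follow from those reads.

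The main test was limma 3.58.1 (R 4.3.3), two-sided, on log2(value + 1), with 4 group means over 16 libraries, eBayes with trend and Benjamini-Hochberg adjustment over the 16748 genes that reached a value of 5 in 4 or more libraries. This scale understates changes of low genes. The adjusted p-values are limma's unless another tool is named. Alternatives were pseudocounts of 0.5 and 5, no filter (27009 genes), quantile normalization, equal library totals, a filter of 20 (13871 genes), a robust fit, a fit without trend or of only the groups compared, edgeR 4.0.16 (quasi-likelihood) and DESeq2 1.42.0 on recovered reads, thinned reads, and each library left out. The procedure was tested on simulated data. All 38 members were named, and of each other list up to 4 genes with the smallest p in WT or in the interaction. Members and lists were chosen with earlier results of these data known. Replicates were numbered in accession order. Promoter sequences are RefSeq's on GRCm38.p6.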

Additional observations from a re-analysis of the deposited data

Results flagged for a closer look

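In 144 checks of a gene within a group of 4 libraries, 1 library stood apart from the other 3 by Dixon's 95% criterion in 5 cases, where chance gives about 1 in 20 checks. They were Flt1 at 1170 in KO vehicle 3, Eng at 89.6 in WT OXA 4, Fli1 at 217 in KO vehicle 2, Icam1 at 78.8 in WT vehicle 2 and Ackr1 at 765 in KO OXA 1.

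The OXA effect differed between the genotypes for 15 genes by the interaction term in limma (adjusted p under 0.05). The log2 interaction, the KO effect minus the WT effect, was -1.69 for Pecam1, -1.84 for Cdh5, -2.11 for Cldn5, -1.67 for Plvap, -1.27 for Ptprb and -1.83 for Clec14a. It was -1.87 for Kdr, -1.17 for Flt1, -1.13 for Tek and -1.87 for Vwf. It was -2.05 for Erg, -2.59 for Fli1, -2.82 for Sox17, -2.97 for Sox18 and -3.54 for Prox1.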

How the results depend on the processing

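The count of called genes in KO OXA against KO vehicle was 1 and became 3 with DESeq2 and 0 with no filter, with no trend and with only the groups compared. The cause was not tested. Leaving out 1 library at a time gave 13 to 19 calls in WT, 0 to 5 in KO, 13 to 18 in the interaction, 0 to 0 in KO vehicle against WT vehicle and 23 to 28 in KO OXA against WT OXA. The other counts stayed within 1.5 times the main one under every alternative. Equal library totals gave the most calls, 24 in WT, 22 in the interaction and 33 in KO OXA against WT OXA. Over the 36 tested members, 5 comparisons and the alternatives run, 4830 single-gene results kept their side of the threshold, 87 lost it, 70 gained it, and none reversed while called. Low reads limit Egfl7, Sele, Esm1, Apln and Aplnr, and single libraries of other genes, Selp, Tal1 and Prox1 among them. No paired analysis was possible because the replicate numbers follow accession order and the title codes pair no libraries.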
